A study of Mus musculus with 7 samples.

Results

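The genes described here were 38 markers of blood vessel endothelium, the cells that line capillaries, arteries and veins. They were chosen as a named list matched on gene symbol, and all 38 were found among the 24421 symbols of the count table. Messenger RNA of sorted mouse stromal cells was counted in 7 libraries from BALB/c mice. The 3 pCAF libraries (cancer-associated fibroblasts sorted for podoplanin, PDPN) came from tumors grown from 100000 4T1-luc mammary carcinoma cells placed in the mammary fat pad of females and taken at a size of 1 cm. The 4 NMF libraries (normal mammary fibroblasts) came from fat pads of mice that received no tumor cells. Both groups were sorted as negative for Ter119, CD45 and EpCAM, markers of red cells, leukocytes and epithelium. A positive gate on PDPN was applied to the tumor cells alone. The labels gave an age of 8 weeks for pCAF and 12 weeks for NMF, although the design text calls the mice age matched, and the selection field of pCAF replicate 3 reads PDPN negative. Tumors and fat pads were digested with different collagenase mixtures. Tissue state, age, digestion and the PDPN gate therefore cannot be told apart in this comparison, and in bulk counts fewer vessel cells cannot be told apart from less RNA per vessel cell. The labels call the libraries biological replicates without naming animals, so each p-value speaks only of the variation among the 7 libraries, which may be technical.

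Blood endothelium is built around receptor tyrosine kinases. KDR and FLT1 bind vascular endothelial growth factors (VEGFs), which drive sprouting and permeability, while TEK and TIE1 form the angiopoietin receptor system that keeps vessels quiescent. Endothelial cells adhere to each other through VE-cadherin (Cdh5), PECAM1 and claudin-5, and their identity is held by transcription factors of the ETS, SOXF and TAL1 families. They do not carry podoplanin, which marks lymphatic endothelium and many fibroblasts, so a gate without PDPN does not by itself exclude vessel cells. The share of vessel cells in the sorted fractions was not measured in these bulk counts. The question put to the data was how far each vessel gene differed between the PDPN-sorted tumor stroma and the fat pad stroma, and how evenly the fat pad libraries carried them.

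Total counts ran from 1885039 to 4990070 per library, with NMF 4 the deepest. Between 11090 and 14353 genes had counts, the fewest in pCAF 1. Pdpn, the gene behind the tumor gate, had 1779, 498 and 692 counts in the pCAF libraries and 128, 109, 166 and 236 in the NMF libraries. It was 11.1-fold higher in pCAF (edgeR quasi-likelihood test, adjusted p = 3.09e-04; 6.69-fold without pCAF 1), and no pCAF library, pCAF 3 included, overlapped the NMF range. Pdgfra, a fibroblast receptor, was at 207 ± 27.0 CPM (counts scaled to 1000000 per library; SD, n = 3) in pCAF and 199.8 ± 58.4 (n = 4) in NMF, adjusted p = 0.916.

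Of the 38 vessel genes, 37 had enough counts to be tested, 35 were lower in pCAF, 1 was higher and 1 did not pass the test. Of the 38, 4 had no pCAF count and 8 had 1 to 3. Those of them that were tested entered the test only through their NMF counts, so they could not be called higher. Among all 10535 tested genes 14.2% were lower and 14.3% higher in pCAF (edgeR, Benjamini-Hochberg adjusted p under 0.05). The median log2 fold change, pCAF over NMF, was -5.47 over the tested vessel genes and -0.02 over all tested genes. It was -5.42 when the genes without a pCAF count were set at their bound. At least a 16-fold lower level was fitted for 28 vessel genes, against 3.2% of all tested genes. Among the 28 was Myct1, which had no pCAF count and a bound of 10.6-fold. Tal1, Lyl1 and Sox7, with 1, 2 and 3 pCAF counts, were among the 28 as well. The lower ends of their counting intervals were 9.02, 5.01 and 14.8. For Myct1, Tal1, Lyl1 and Sox7 the counts therefore do not secure a 16-fold lower level. For 35 of the 38 vessel genes every NMF library lay above every pCAF library, which held for 21.4% of tested genes. The remaining 3, Apln, Fli1 and Clec14a, overlapped between the groups.

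**Figure D1:**
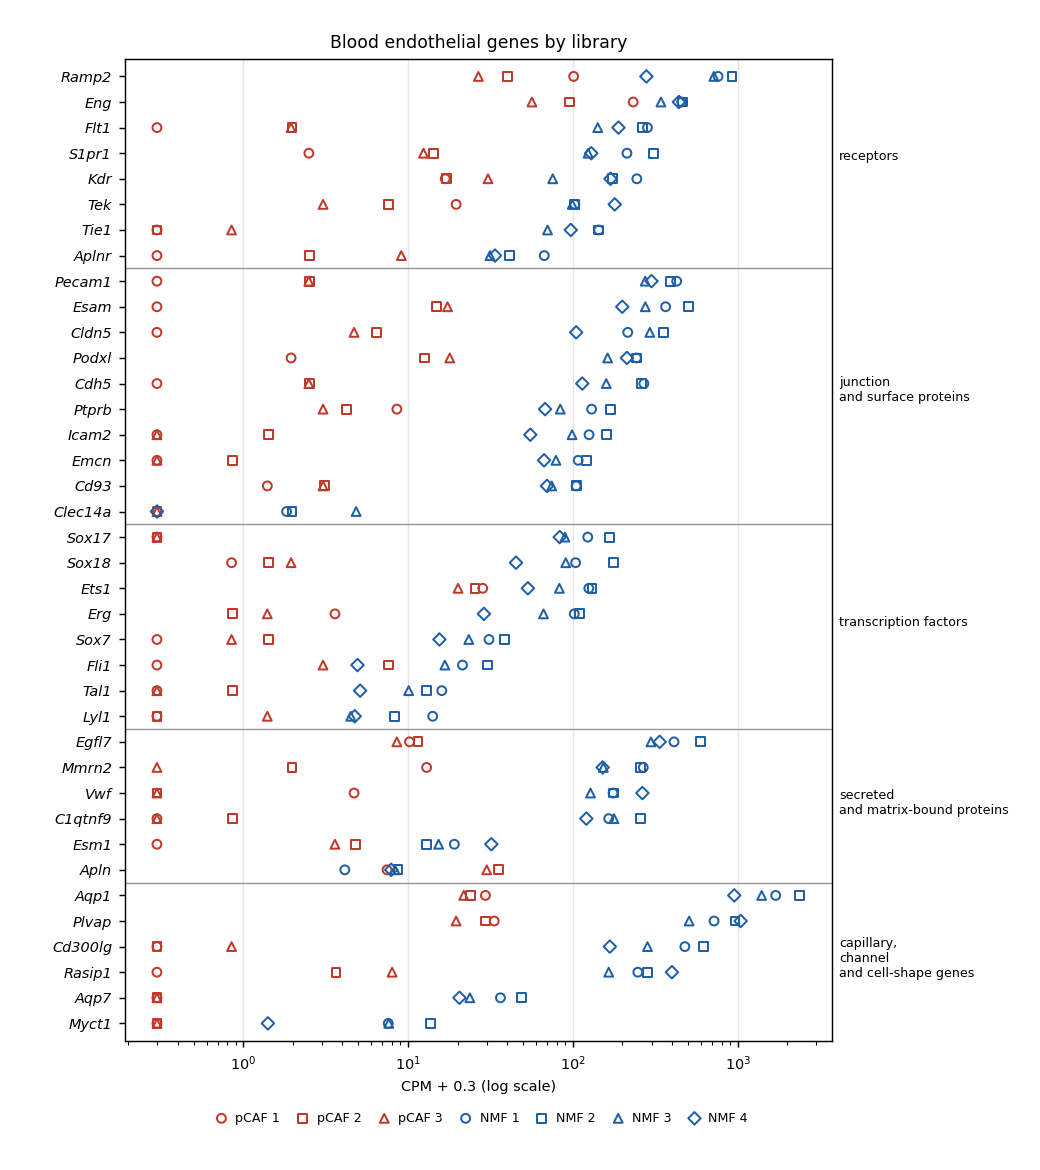
Level of each of the 38 vessel genes in each library, as CPM plus 0.3 on a log axis, grouped by role; circles, squares, triangles and diamonds are replicates 1 to 4, red for pCAF and blue for NMF. Red symbols at the left edge are libraries with no count, and Apln is the gene whose pCAF 2 and pCAF 3 symbols lie to the right of all NMF symbols.

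Summed over the 38 genes, the level was 510, 367 and 305 CPM in pCAF replicates 1 to 3 and 9018, 11010, 6645 and 6434 CPM in NMF replicates 1 to 4. The NMF mean was 8276 ± 2166 CPM (SD, n = 4) and the pCAF mean 394 ± 105 CPM (SD, n = 3), a ratio of 21. These levels rested on 926, 656 and 554 counts in pCAF and on 19000 to 34676 counts in NMF. Thus pCAF libraries held 3.69% to 6.16% of the NMF mean, and every NMF library held at least 77.7% of it.

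All 8 receptors were lower in pCAF, with a median log2 fold change of -3.60. Flt1, a VEGF receptor that acts in large part as a decoy, had 0, 3 and 3 counts in pCAF and 738, 628, 404 and 1018 in NMF. It was 189.8-fold lower (log2 fold change -7.57, SE 0.60, adjusted p = 3.76e-05). Kdr, the main signalling receptor for VEGF-A, had 30, 30 and 55 counts in pCAF and 636, 413, 215 and 910 in NMF. Its level fell from 165 ± 69.3 CPM in NMF (n = 4) to 21.2 ± 7.87 CPM in pCAF (n = 3), 7.78-fold lower (adjusted p = 9.57e-04). The 2 VEGF receptors thus kept 0.506% and 12.8% of their NMF means. Flt1 spans chr5:147561604-147726011 and Kdr chr5:75932827-75978458, both on the minus strand of mm10.

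The angiopoietin receptors were both lower. Tie1, an orphan partner of TEK, had 0, 0 and 1 counts in pCAF and 373, 341, 200 and 522 in NMF, a count ratio of 588 (exact 95% counting interval 105 to 23229; adjusted p = 3.44e-05). Without pCAF 3, which held its lone count, Tie1 was at least 129.6-fold lower. Tek had 35, 13 and 5 counts in pCAF and 267, 244, 283 and 966 in NMF, 12.3-fold lower (adjusted p = 0.00113) and 24.1-fold lower without pCAF 1. No pCAF library reached the lowest NMF library in either gene. Tek covers chr4:94739289-94874976 on the plus strand and Tie1 chr4:118471191-118490061 on the minus strand.

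Endoglin and Ramp2 were the receptors with the most counts left in pCAF. Eng, a TGF-beta and BMP co-receptor also found on fibroblasts, had 421, 169 and 102 counts in pCAF and 1193, 1096, 978 and 2368 in NMF. Its level was 128 ± 92.4 CPM in pCAF and 425 ± 55.9 CPM in NMF, 3.33-fold lower (log2 fold change -1.73, SE 0.44, adjusted p = 0.0151). The groups did not overlap, but pCAF 1 was the high library: Eng was 5.65-fold lower without it (adjusted p = 2.11e-04), and without pCAF 2 the call was lost (adjusted p = 0.0581). The last exon of Eng lies against Fpgs on the other strand, and the use of strand in counting is not given in the sources used here. Fpgs itself was at 12.2 CPM in pCAF and 12.4 CPM in NMF.

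Ramp2, which turns the receptor CALCRL into an adrenomedullin receptor, had 183, 71 and 48 counts in pCAF and 1980, 2199, 2048 and 1504 in NMF. Here too pCAF 1 was the highest of its group, and the fold change was 12.0-fold lower in all libraries and 20.3-fold lower without it (adjusted p = 0.00134 and 2.45e-04). S1pr1, the sphingosine-1-phosphate receptor that steadies junctions, was 20.4-fold lower (adjusted p = 5.86e-04). Aplnr, the apelin receptor, had 0, 4 and 16 counts in pCAF and 89 to 180 in NMF, 11.5-fold lower (adjusted p = 0.00717) and 37.0-fold lower without pCAF 3.

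Junction and surface genes were lower throughout: 9 of 10 were tested and all 9 were lower in pCAF, with a median log2 fold change of -6.08. Pecam1, the adhesion molecule CD31 of endothelial contacts, had 0, 4 and 4 counts in pCAF and 1110, 934, 785 and 1615 in NMF, 228-fold lower (log2 fold change -7.83, SE 0.59, adjusted p = 3.44e-05). Cdh5, the cadherin of adherens junctions, had 0, 4 and 4 counts against 702, 618, 455 and 613, 131-fold lower (adjusted p = 7.26e-05). For this pair the pCAF means, 1.48 ± 1.28 CPM each, lay below the 1.65 CPM that 3 counts are worth in pCAF 1, so depth limits how precisely the fold is known.

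The tight junction gene Cldn5 and the adhesion gene Esam had slightly more counts left. Cldn5 had 0, 11 and 8 counts in pCAF and 560, 840, 837 and 563 in NMF, 67.7-fold lower (adjusted p = 3.72e-04; 107-fold without pCAF 2). Esam had 0, 26 and 31 counts in pCAF and 951, 1205, 786 and 1073 in NMF, 31.8-fold lower (adjusted p = 0.00168). In each of these 4 junction genes pCAF 1 was at 0 while pCAF 2 and pCAF 3 had counts. The same pattern, 0 in pCAF 1 and at least 1 count in both other pCAF libraries, was seen in 10 of the 38 vessel genes. Conversely, 10 of the 38 had their highest pCAF level in pCAF 1. Over the whole table, 11090 genes had counts in pCAF 1, 13409 in pCAF 2 and 13555 in pCAF 3. How many of all genes share the pattern of zeros is not given here, so it cannot be called particular to vessel genes. The part of library pCAF 1 in these zeros was not tested.

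Other surface genes ran in the same direction. Emcn, a sialomucin of veins and capillaries, had 1 count over the pCAF libraries and 225 to 359 per NMF library (adjusted p = 3.44e-05). Icam2, an adhesion molecule for leukocytes, had 2 counts over pCAF and 282 to 379 per NMF library (adjusted p = 7.77e-05). Cd93, a C-type lectin family receptor of sprouting endothelium, was 38.95-fold lower (adjusted p = 3.70e-05). Ptprb, the phosphatase that restrains TEK, was 22.3-fold lower (adjusted p = 2.13e-04), and Podxl, a sialomucin of the vessel lumen, 20.3-fold lower (adjusted p = 5.04e-04). Clec14a had no count in pCAF and 4, 4, 13 and 0 counts in NMF, too few for the test. Its summed NMF level was at least 2.86-fold above the floor that 3 counts over the pCAF group set, and NMF 3 supplied most of it: the bound was 1.39 without that library and 4.76 without NMF 4.

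Of the 8 transcription factors, 7 were lower and Fli1 did not pass. Sox17, a SOXF factor of arterial endothelium at chr1:4490931-4497354, had no count in any pCAF library and 320, 397, 255 and 447 counts in NMF, at least 194-fold lower (adjusted p = 5.85e-05). The bound ran from 128 to 221 when libraries were left out in turn. Sox18, its relative in vessel and lymphatic development, had 1, 2 and 3 counts in pCAF and 270, 418, 258 and 242 in NMF, 89.5-fold lower (log2 fold change -6.48, SE 0.65, adjusted p = 1.04e-04). The third SOXF gene, Sox7, had 3 counts over pCAF and 66 to 91 per NMF library (adjusted p = 4.91e-04). All 3 SOXF genes were thus at or near 0 in pCAF.

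The ETS factors differed more among themselves. Erg, which holds endothelial identity, had 6, 1 and 2 counts in pCAF and 265, 260, 189 and 154 in NMF, 44.6-fold lower (adjusted p = 3.75e-04). With pCAF 1 left out, 3 pCAF counts remained for Erg and the ratio was 79.0 (95% counting interval 26.9 to 384). Ets1, which is also made by lymphocytes and stromal cells, had 51, 45 and 36 counts in pCAF and 325, 311, 236 and 286 in NMF. It was 3.99-fold lower (24.4 ± 4.20 CPM in pCAF, 97.7 ± 36.6 CPM in NMF, adjusted p = 0.00305), and its pCAF replicates lay close together. Fli1 had 0, 13 and 5 counts in pCAF and 55, 72, 47 and 25 in NMF, 3.34 ± 3.67 against 18.1 ± 10.6 CPM. The groups overlapped between pCAF 2 and NMF 4, and the adjusted p was 0.0731 (log2 fold change -2.41, SE 0.91). Fli1 passed without pCAF 2 (12.6-fold lower, adjusted p = 0.0429) and without NMF 4 (6.62-fold lower, adjusted p = 0.0404).

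The bHLH factors Tal1 and Lyl1, shared between endothelium and blood progenitors, were lower on small counts. Tal1 had 0, 1 and 0 counts in pCAF and 41, 30, 28 and 26 in NMF (ratio 51.2, counting interval 9.02 to 2037, adjusted p = 0.00252; at least 11.4-fold lower without pCAF 2). Lyl1 had 0, 0 and 2 counts in pCAF and 36, 19, 12 and 24 in NMF (adjusted p = 0.0138), and the call was lost without pCAF 2 (adjusted p = 0.0524). Without NMF 1 or NMF 4, Lyl1 had too few counts for the test. Its last exon overlaps Nfix on the opposite strand, a gene at 246 CPM in pCAF and 234 CPM in NMF.

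Among the 6 genes for secreted and matrix-bound proteins, 5 were lower and Apln was higher. Egfl7, a matrix-bound regulator of sprouting that hosts an endothelial microRNA, had 18, 20 and 15 counts in pCAF and 1070, 1422, 850 and 1811 in NMF. It was 41.7-fold lower (log2 fold change -5.38, SE 0.38, adjusted p = 2.84e-05), with the pCAF libraries within 9.79 ± 1.47 CPM. The 3' end of Egfl7 overlaps the gene model Gm20532 on the same strand, so reads could have been split between them. Mmrn2, a ligand of CD93 and CLEC14A in the vessel matrix, had 23, 3 and 0 counts in pCAF and 696, 616, 437 and 816 in NMF, 42.9-fold lower (adjusted p = 0.00111). Most of its pCAF counts came from pCAF 1, without which the ratio was 233.5 (counting interval 79.8 to 1133).

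Vwf, the clotting factor stored in endothelial granules, had 8, 0 and 0 counts in pCAF and 456, 418, 365 and 1422 in NMF, 122-fold lower (adjusted p = 2.45e-04) and at least 242-fold lower without pCAF 1. C1qtnf9, an adiponectin-related protein, had a single pCAF count against 429, 616, 507 and 649 in NMF, a ratio of 901 (counting interval 161.5 to 35596, adjusted p = 2.69e-05). Without pCAF 2, which held that count, C1qtnf9 was at least 201-fold lower. Esm1, a proteoglycan of sprouting tip cells, had 0, 8 and 6 counts in pCAF and 49, 30, 43 and 171 in NMF, 7.49-fold lower (adjusted p = 0.0169) and 11.6-fold lower without pCAF 2. Esm1 thus kept more of its NMF mean, 13.3%, than Vwf, which kept 0.792%.

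Apelin (Apln), the ligand of APLNR that tip cells secrete and that fibroblasts and adipocytes also make, went the other way. Apln had 13, 63 and 54 counts in pCAF and 10, 20, 23 and 41 in NMF. On the CPM scale this was 24.05 ± 14.9 (SD, n = 3) against 6.97 ± 2.11 (SD, n = 4), 3.43-fold higher in pCAF (log2 fold change 1.78, SE 0.54, adjusted p = 0.0337). Replicates pCAF 2 and pCAF 3 lay above every NMF library, while pCAF 1 lay inside the NMF range. The call rested on the full set: it held without pCAF 1, and it was lost without any other library, with adjusted p-values for Apln of 0.144 without pCAF 2, 0.105 without pCAF 3, 0.0978 without NMF 1, 0.0727 without NMF 2, 0.0698 without NMF 3 and 0.0585 without NMF 4. Apln lies at chrX:48025146-48034853 on the minus strand. The ligand and its receptor thus had opposite signs, Apln higher and Aplnr lower.

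All 6 capillary, channel and cell-shape genes were lower, with a median log2 fold change of -6.73. Aqp1, a water channel of capillary endothelium at chr6:55336432-55348555, had 53, 42 and 39 counts in pCAF and 4429, 5679, 3997 and 5137 in NMF, 64.9-fold lower (log2 fold change -6.02, SE 0.43, adjusted p = 3.29e-05). Plvap, which forms the diaphragms of fenestrae and caveolae, had 60, 52 and 35 counts in pCAF and 1872, 2294, 1450 and 5613 in NMF, 29.7-fold lower (adjusted p = 4.12e-05). Cd300lg, a capillary and venule surface receptor at chr11:102041509-102055620, had 0, 0 and 1 counts in pCAF and 1245, 1478, 810 and 902 in NMF. The ratio for Cd300lg was 1815 (counting interval 326 to 71709, adjusted p = 3.91e-05), and without pCAF 3 the gene was at least 400.4-fold lower. Rasip1, needed for vessel lumen formation, was 73.2-fold lower (adjusted p = 2.79e-04; 158.5-fold without pCAF 3). Its 3' end overlaps the gene model A030001D20Rik on the opposite strand, so its counts carry the same doubt about strand as those of Eng.

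The other 2 genes of this group had no count in pCAF. Aqp7, a glycerol channel of capillaries and adipocytes, had 94, 116, 67 and 109 counts in NMF, at least 52.7-fold lower in pCAF (adjusted p = 3.52e-04; bounds of 34.8 to 62.8 when libraries were left out in turn). The last bases of the annotated Aqp7 end were shared with 13 other genes, so its counts are uncertain. Myct1, a small endothelial membrane protein, had 19, 32, 21 and 6 counts in NMF, at least 10.6-fold lower (adjusted p = 0.0154; bounds of 7.04 to 16.3). The call for Myct1 was lost with limma-voom (adjusted p = 0.0556), and the gene had too few counts for the test without NMF 1, NMF 2 or NMF 3. Adipocyte markers moved with these genes: all 7 tested of 10 were lower in pCAF, and their summed level was 6.61 to 88.6 CPM in pCAF and 2036 to 15656 CPM in NMF. Their part in the results for Aqp7 and C1qtnf9 was not tested.

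**Figure D2:**
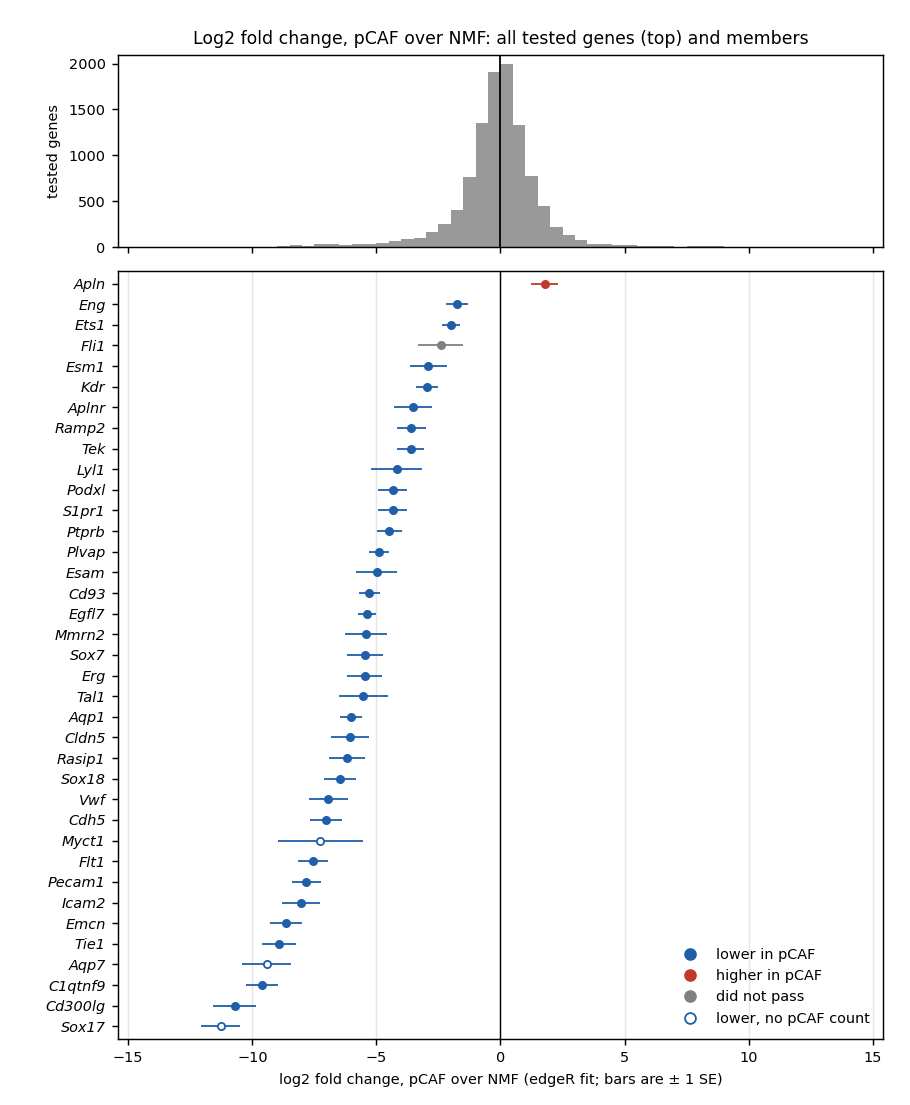
Histogram of the log2 fold change (pCAF over NMF, edgeR fit) of all tested genes above, and the 37 tested vessel genes below with bars of 1 SE; open circles mark genes with no pCAF count, whose fitted value is not a bound. All points but Apln at 1.78 lie below 0, and the vessel genes' median of -5.47 compares with -0.02 for all genes.

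The vessel genes kept very different shares of their NMF level in pCAF. For 13 of the 38 the pCAF mean was under 1% of the NMF mean, for 16 it was 1% to 5%, for 7 it was 5% to 25%, and for Eng (30.0%) and Apln (345%) it was higher. The median was 2.12%. Receptors kept a median of 8.20%, junction and surface genes 1.1%, transcription factors 2.12%, secreted proteins 2.35% and the capillary group 0.699%; these medians were set side by side without a test. The makeup of the counts that were left therefore differed from that of the fat pad. Eng supplied 45.5% of all vessel-gene counts in pCAF 1 (Wilson 95% interval 42.3% to 48.7%), 25.8% in pCAF 2 (22.6% to 29.2%) and 18.4% in pCAF 3 (15.4% to 21.9%), against 4.18% to 6.83% in NMF libraries. Apln supplied 1.40% in pCAF 1, 9.60% in pCAF 2 and 9.75% in pCAF 3, against at most 0.121% in NMF. Aqp1 supplied 5.72% to 7.04% in pCAF and 14.8% to 21.6% in NMF.

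Promoter sequences were looked up because the list holds its own candidate regulators, the ETS factors Erg, Fli1 and Ets1, the SOXF factors and the E-box factors Tal1 and Lyl1. Of the 38 genes, 19 had an entry in the RefSeq promoter table (GRCm38.p6), with 25 start sites. The table's windows run from 250 bases before to 50 bases after each start. A few are printed here from 5' to 3' without those last 50 bases, in lower case with ETS letters (CAGGAA or CCGGAA, or the same on the other strand) in capitals. They are Tek, a receptor near the receptors' median fold change, Flt1, a receptor with a far lower level in pCAF, C1qtnf9 with one of the lowest pCAF levels, and Apln as the gene that was higher in pCAF.
Tek, chr4:94739039-94739288, plus strand: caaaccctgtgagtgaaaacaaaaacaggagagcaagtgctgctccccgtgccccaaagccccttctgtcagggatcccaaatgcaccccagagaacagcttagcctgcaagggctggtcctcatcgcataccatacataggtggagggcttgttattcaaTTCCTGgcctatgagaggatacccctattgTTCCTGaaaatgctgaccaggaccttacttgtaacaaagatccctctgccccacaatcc
Flt1, chr5:147726012-147726261, minus strand: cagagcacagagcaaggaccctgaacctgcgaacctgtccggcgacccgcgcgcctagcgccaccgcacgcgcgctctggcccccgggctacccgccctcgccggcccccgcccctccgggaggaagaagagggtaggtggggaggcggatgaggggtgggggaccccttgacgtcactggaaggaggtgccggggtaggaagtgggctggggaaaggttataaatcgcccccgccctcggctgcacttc
C1qtnf9, chr14:60767884-60768133, plus strand: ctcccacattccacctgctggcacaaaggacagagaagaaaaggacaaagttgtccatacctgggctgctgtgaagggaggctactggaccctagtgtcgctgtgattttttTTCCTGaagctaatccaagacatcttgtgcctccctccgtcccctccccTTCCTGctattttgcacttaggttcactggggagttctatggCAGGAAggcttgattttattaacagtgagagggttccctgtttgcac
Apln, chrX:48034854-48035103, minus strand: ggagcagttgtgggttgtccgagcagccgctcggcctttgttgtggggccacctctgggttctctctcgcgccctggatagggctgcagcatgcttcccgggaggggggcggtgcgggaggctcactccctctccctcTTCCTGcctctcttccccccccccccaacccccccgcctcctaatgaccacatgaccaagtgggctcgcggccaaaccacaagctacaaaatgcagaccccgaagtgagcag

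These windows held 2 ETS matches in Tek, 0 in Flt1, 3 in C1qtnf9 and 1 in Apln. Only CAGGAA and CCGGAA were searched, so other stretches with GGAA, as in the Flt1 window, were not counted. Over all entries, 16 of the 25 vessel-gene windows held CAGGAA or CCGGAA on either strand, 64.0%, and 41.4% of all 32851 windows did. Some start sites, among them those of Kdr, Tie1 and Egfl7, did not match the first bases of a GENCODE M21 coding transcript. The windows of Aqp7 overlap each other, so the entries are not all independent. The SOX letters ACAAAG or AACAAT were in 28% of vessel-gene windows and 27.0% of all windows. The E-box CAGATG was in 24% and 17.2%. Matches are a description of letters only.

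Within NMF the vessel genes were not evenly loaded. The coefficient of variation over the 4 libraries had a median of 37.5% (13.2% to 68.9% over the 37 genes with at least 50 NMF counts). Each library was set against the mean of the other 3, gene by gene. The median ratio was 1.19 in NMF 1, 1.44 in NMF 2, 0.743 in NMF 3 and 0.602 in NMF 4. Over all genes the medians lay between 0.972 and 0.986. The library scaling brings the typical gene to a like level in every library, so these all-gene medians are no measure of spread. How far other genes varied over the NMF libraries is not given here. Eng varied least, and Kdr in NMF 3 was at 0.385 of the other libraries. The order NMF 2, NMF 1, NMF 3, NMF 4 in summed level was not followed by all genes: 22 of the 38 were lowest in NMF 4 and 14 in NMF 3.

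**Figure D3:**
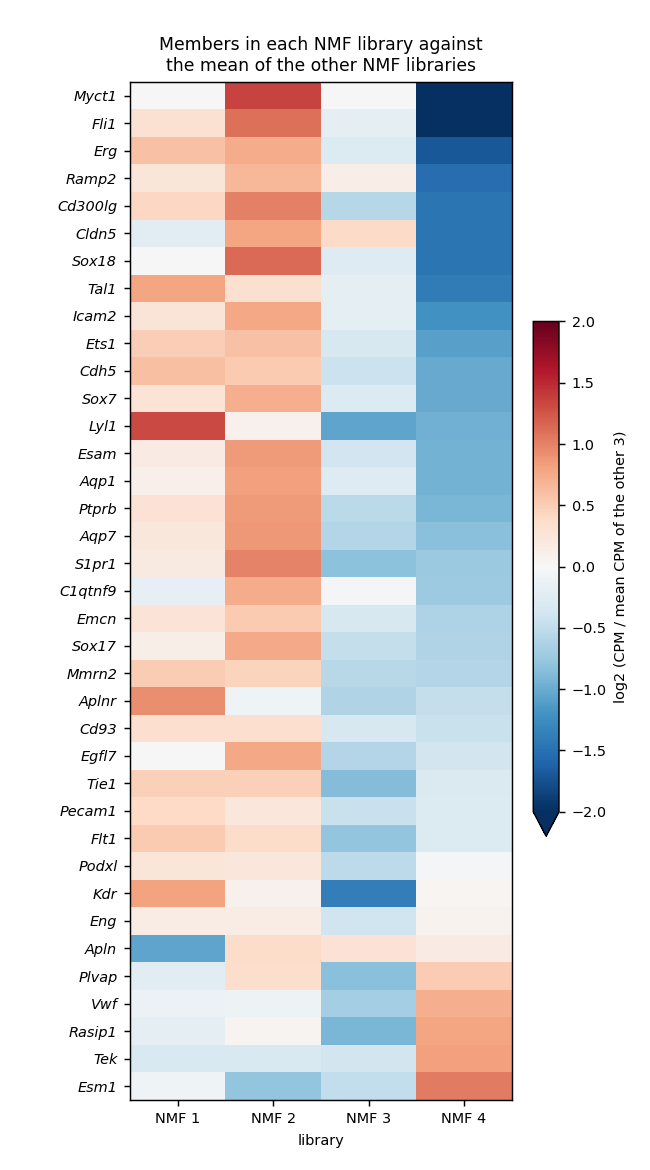
Log2 ratio of each NMF library's CPM to the mean of the other 3 NMF libraries, for the 37 vessel genes with at least 50 NMF counts, ordered by the value in NMF 4; blue is below and red above the other libraries. The column of NMF 4 runs from Myct1 (ratio 0.119) at the top to Esm1 (ratio 2.05) at the bottom.

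Gene ratios to the mean of the other NMF libraries ran from 0.479 to 2.49 in NMF 1 and 0.576 to 2.56 in NMF 2. In NMF 3 they ran from 0.385 to 1.31. Replicate NMF 4, too, differed in makeup and not in amount alone. Relative to the other NMF libraries it was low in Myct1 (ratio 0.119), Fli1 (0.205), Erg (0.31), Ramp2 (0.349), Cd300lg (0.364), Cldn5 (0.364) and Sox18 (0.365). It was high in Esm1 (2.05), Tek (1.77), Rasip1 (1.72), Vwf (1.66) and Plvap (1.43), and above the mean of the others in 8 of 37 genes. The low ratios of Myct1 and Fli1 rested on only 6 and 25 counts in NMF 4. Plvap made up 16.2% of vessel-gene counts in NMF 4 and 7.63% to 8.74% in the other 3 libraries. Vwf made up 4.10% in NMF 4 and 1.59% to 1.94% in the others. Other marker lists set the library apart as well: adipocyte markers summed to 2036 CPM in NMF 4 and 7789 to 15656 CPM in the others, leukocyte markers to 30.8 CPM and Schwann cell markers to 1032 CPM, their NMF lowest and highest values. Their part in the vessel-gene spread was not tested.

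Genes of other cell types moved with the group too. Most blood vessel genes outside the list were lower as well: of 19 tested further endothelial genes, 16 were lower, Ctla2a was higher and 2 did not pass. Gpihbp1, which anchors lipoprotein lipase in capillaries, had 0, 4 and 2 counts in pCAF and 4388, 7165, 3784 and 4077 in NMF, 1464-fold lower (adjusted p = 3.91e-05; 2833-fold without pCAF 2). Robo4, a guidance receptor that stabilises vessels, was 169-fold lower (adjusted p = 2.07e-05), and Arhgef15, an endothelial exchange factor, 75.8-fold lower (adjusted p = 3.70e-05). Ctla2a, a protease inhibitor not limited to endothelium, had 524, 1018 and 2510 counts in pCAF and 469 to 691 in NMF, 3.66-fold higher (adjusted p = 0.0221). Without pCAF 3 Ctla2a was 2.12-fold higher (adjusted p = 0.114), and the call was also lost without NMF 3 (adjusted p = 0.0636) and without NMF 4 (0.0502).

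Vessel subtype lists were not uniform, and they shared genes with each other and with other lists. Dll4 was in the ligand, arterial and tip-cell lists, and Gpihbp1 in the further endothelial and capillary-type lists. Calls of such genes are therefore counted again in each list. Of 11 tested capillary-type genes 8 were lower, none was higher and 3 did not pass. Tcf15, a capillary transcription factor, had 0, 1 and 1 counts in pCAF and 249 to 763 in NMF (ratio 335, counting interval 92.5 to 2765, adjusted p = 2.84e-05). Car4, a carbonic anhydrase of capillaries, had 202, 3 and 5 counts in pCAF and 486, 516, 354 and 391 in NMF (adjusted p = 0.20). With pCAF 1 left out Car4 was 66.1-fold lower (adjusted p = 1.09e-04). Among 8 tested arterial genes 4 were lower, among them the gap junction gene Gja4 (23.5-fold, adjusted p = 5.11e-04), and 2 were higher, among them the netrin receptor gene Unc5b (7.02-fold, adjusted p = 7.93e-05). Of 7 tested venous genes 3 were lower, with the chemokine-binding receptor Ackr1 12.3-fold lower (adjusted p = 3.44e-05), and Vcam1, an adhesion molecule also made by fibroblasts, was 3.51-fold higher (adjusted p = 0.004). Of 8 tested tip-cell genes 4 were lower and 3 higher. Among these was Plaur, the urokinase receptor of many migrating cells, 5.61-fold higher (adjusted p = 0.00109), while Pdgfb, the pericyte attractant, had 3 counts over pCAF against 727 in NMF (adjusted p = 2.83e-04).

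Lymphatic endothelium, which does carry podoplanin, could have passed the tumor gate. Its defining factor Prox1 had 0, 0 and 2 counts in pCAF and 0, 0, 1 and 0 in NMF, and Lyve1 had 0, 21 and 26 against 9, 12, 9 and 0 (adjusted p = 0.335). Flt4, the VEGF-C receptor of lymphatic and sprouting endothelium, was 3.36-fold lower in pCAF (adjusted p = 0.0137). Of 8 lymphatic markers 5 were tested, with 2 higher and 1 lower. The list summed to 330 to 1013 CPM in pCAF and 96.5 to 124 CPM in NMF, with Pdpn itself included. Pdpn alone supplied 1779, 498 and 692 of the 1839, 590 and 766 list counts in pCAF. In NMF it supplied 128, 109, 166 and 236 of 282, 266, 276 and 669. The higher list sum in pCAF thus rested on the gene behind the tumor gate.

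Mural and stromal markers stood beside the vessel genes as follows. Rgs5, a pericyte gene, had 0, 0 and 2 counts in pCAF and 482, 278, 196 and 426 in NMF (ratio 283, counting interval 78.1 to 2338, adjusted p = 7.93e-05; at least 125-fold lower without pCAF 3). Rgs5 does not stand for its list: of 12 tested pericyte and smooth muscle markers 4 were lower and 4 higher. Their median log2 fold change was -0.40, although the list summed to 1406 to 1798 CPM in pCAF and 461 to 686 CPM in NMF. Abundant genes weigh most in such a sum. Fibroblast markers, all 10 tested, were higher for 5 and lower for 1, with sums of 72804 to 82184 CPM in pCAF and 26159 to 45931 CPM in NMF. Schwann cell markers were lower for 5 of 6 tested, with sums of 16.5 to 31.4 CPM in pCAF and 264 to 1032 CPM in NMF. The leukocyte gene Ptprc, which encodes the CD45 used for exclusion, had no count in pCAF and 5 to 23 counts in NMF. Leukocyte markers were lower for 4 of 9 tested and higher for 0, with a median log2 fold change of -2.09, and epithelial markers were lower for 2 of 5 tested and higher for 0. Leukocyte markers summed to 74.3 to 207 CPM in pCAF and 30.8 to 265 CPM in NMF, and epithelial markers to 72.2 to 230 CPM and 63.5 to 319 CPM. A part of these other cell types in the difference of the vessel genes was not tested.

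**Figure D4:**
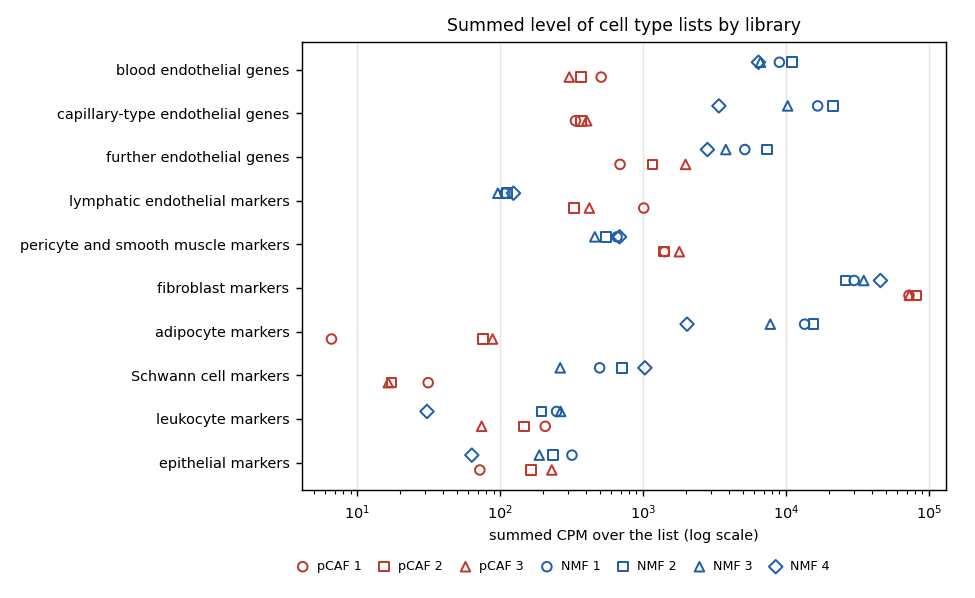
Summed CPM of each fixed marker list in each library on a log axis; red symbols are pCAF and blue symbols NMF, with shapes for replicates 1 to 4. Blood endothelial genes lie between 305 and 510 CPM in pCAF and between 6434 and 11010 CPM in NMF. Pericyte and smooth muscle, fibroblast and lymphatic sums lie higher in pCAF. The fibroblast and lymphatic lists include Pdpn, the gene behind the tumor gate, which supplied most lymphatic list counts in pCAF.

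The ligands and partners of the vessel receptors went in both directions. Of 24 such genes 20 were tested, 7 were higher in pCAF, 6 were lower and 7 did not pass, with a median log2 fold change of -0.30. Vegfa, the main KDR ligand, had 584, 620 and 774 counts in pCAF and 267, 186, 218 and 650 in NMF. Its level was 365 ± 54.5 CPM in pCAF and 94.3 ± 21.2 CPM in NMF, 3.86-fold higher (log2 fold change 1.95, SE 0.26, adjusted p = 5.11e-04). Pgf, the placental growth factor that binds FLT1, had 163, 195 and 259 counts in pCAF and 34 to 158 in NMF, 5.34-fold higher (adjusted p = 4.52e-04). Kdr and Flt1 were thus lower in pCAF and the ligands Vegfa and Pgf higher, each with groups that did not overlap in CPM.

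Other VEGF genes differed less. Vegfc, a ligand of FLT4 and KDR, was at 39.9 ± 11.5 CPM in pCAF and 19.0 ± 6.61 CPM in NMF (adjusted p = 0.0545), and it passed without pCAF 1 (adjusted p = 0.0137) and without NMF 4 (0.0302). Vegfb, an FLT1 ligand, was at 48.6 ± 27.8 CPM in pCAF and 100.2 ± 15.3 CPM in NMF (adjusted p = 0.09), and it passed without pCAF 1 (adjusted p = 0.0466). Figf, the gene of VEGF-D, was 1.75-fold lower in pCAF (adjusted p = 0.0304), a call that was lost in 5 of the 7 fits that left out a library. The VEGF co-receptor gene Nrp1 was 1.89-fold lower (adjusted p = 0.0243; lost without pCAF 2, at 0.085, NMF 1, at 0.0628, or NMF 2, at 0.0712), and Nrp2 did not pass (adjusted p = 0.296).

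The angiopoietin ligands split. Angpt1, the TEK agonist made by mural and stromal cells, had 53, 35 and 71 counts in pCAF and 3, 4, 6 and 20 in NMF, 12.65-fold higher (adjusted p = 5.18e-04). Angpt2, the context-dependent antagonist that endothelium itself secretes, had no count in pCAF and 12, 7, 8 and 16 in NMF, and was not tested. Sphk1, a kinase that makes the S1PR1 ligand, had 188, 214 and 251 counts in pCAF and 19, 20, 29 and 2 in NMF, 19.1-fold higher (adjusted p = 0.00127). Adm, the ligand of the RAMP2 receptor complex, did not pass (adjusted p = 0.783), nor did Calcrl (adjusted p = 0.116). So for TEK and S1PR1 too, the receptor gene was lower and a gene on the ligand side higher.

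The Notch and BMP genes of the list went in both directions. The Notch ligand gene Dll4 had 0, 1 and 1 counts in pCAF and 223, 242, 182 and 222 in NMF (ratio 178, counting interval 49.1 to 1471, adjusted p = 5.65e-05), and the endothelial receptor gene Notch4 was 61.95-fold lower (adjusted p = 1.12e-04). The more widely expressed Notch1 was 3.60-fold lower (adjusted p = 0.00172). Jag1, another Notch ligand gene, had 81, 45 and 38 counts in pCAF and 37, 21, 30 and 34 in NMF, 3.06-fold higher (adjusted p = 0.0161; lost without NMF 2, at 0.0546). Acvrl1, the BMP receptor that works with endoglin, had 68, 60 and 57 counts in pCAF and 228, 275, 316 and 370 in NMF, 2.79-fold lower (adjusted p = 0.00334), while its type II partner gene Bmpr2 was 2.89-fold higher (adjusted p = 0.0141).

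**Figure D5:**
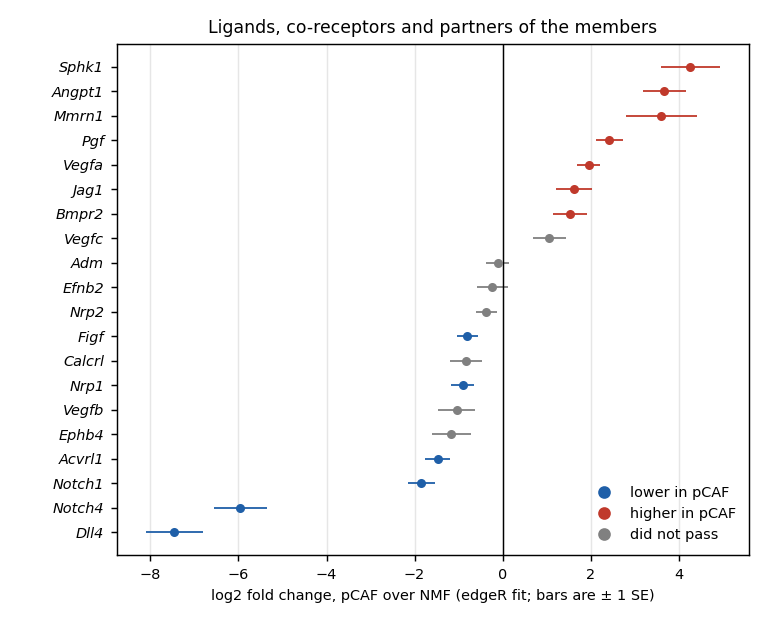
Log2 fold change, pCAF over NMF, of the 20 tested ligands, co-receptors and partners of the vessel genes in the edgeR fit. Bars are 1 SE, derived from the F statistic. Red passed as higher, blue passed as lower and grey did not pass. Sphk1, Angpt1, Pgf and Vegfa lie right of 0, and Dll4 and Notch4 lie farthest to the left.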

How the data were processed

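The deposited table held raw counts per gene symbol, whole numbers that the authors left unscaled. The submitters' processing notes name bcl2fastq, STAR 2.4.2a, HTSeq and mm10, with no roles given. Libraries were made from 3' ends, per the labels' protocols, so a count does not scale with transcript length. Annotation, strand use, multi-mapping and molecular identifiers are not given in the sources used here.

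Counts of all 7 libraries (3 pCAF, 4 NMF, by title) were fitted in R 4.3.3 with edgeR 4.0.16 (TMM scaling, filterByExpr, quasi-likelihood F test, robust and two-sided) and p-values were adjusted by Benjamini-Hochberg over the 10535 genes kept. The fit itself gives no SE. Each SE was derived as the absolute log2 fold change over the square root of the F statistic, and is approximate. CPM used the scaled library sizes. A gene without pCAF counts was given a bound against 3 counts over the group (0.554 CPM). With 1 to 3 counts the ratio carries a 95% counting interval (exact). These bounds and intervals, and the Wilson intervals of shares, reflect counting error alone. The fit was tested on simulated data.

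The genes and lists were chosen with earlier results of these data known. Per-library values are given for the 3 genes of each role with the highest NMF level and for those without pCAF counts, not passing or higher; other values were added after they were seen. Alternatives were DESeq2 1.42.0 and limma 3.58.1, other scalings and filters, a replicate block and left-out libraries. Gene positions are from GENCODE M21. Overlaps were sought in the last 1000 bases, and shared ends in the last 300 (at least 80 bases at 95% identity).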

Additional observations from a re-analysis of the deposited data

Results flagged for a closer look

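Tek stood out in 1 fat pad library. Its level in NMF 4 was 179.2 CPM, and the nearest other NMF library was at 102.5 CPM, so the gap took up 0.956 of the group's range, over Dixon's critical value for 4 samples. This was 1 of 54 values examined for an outlying NMF library, and chance alone flags about 1 in 20 of them. Tek was 12.3-fold lower in pCAF with all libraries, and every NMF library lay above every pCAF library.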

How the results depend on the processing

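Over the 16 settings the vessel genes lower in pCAF numbered 32 to 36 and their median log2 fold change ran from -5.81 to -5.27. Among the values for single vessel genes under these alternatives, 529 kept their direction and side of the threshold, 14 no longer passed, 4 passed only then, and none changed sign. Calls were lost for Apln, Eng, Lyl1, Esm1 and Myct1. Thus 0 vessel genes were higher with library totals, with limma-voom and with the replicate block, and 0 to 1 when single libraries were left out. Over all genes, leaving out single libraries gave 989 to 2187 lower and 1004 to 2021 higher calls, and leaving out pCAF 1 and NMF 4 together gave 2913 lower and 2802 higher. Library totals moved the median of all genes to -0.26 and the share of higher calls from 50.2% to 37.1%. The summed level in pCAF 1 was 6.16% of the NMF mean, 4.77% with library totals and 3.02% as a geometric mean over the genes. The log2 fold change of Pdgfra, which did not pass, changed sign with library totals (-0.18) and without pCAF 2 (-0.06), NMF 1 (-0.080) or NMF 2 (-0.03), in a range of -0.080 to 0.28 over left-out libraries. That of Adm changed sign without NMF 2 (0.0067), in a range of -0.23 to 0.0067. The cause was not tested.

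With the replicate number as a block, 978 genes were higher and 1023 lower. In the block fit Apln (adjusted p = 0.0633), Lyl1 (0.0643) and Esm1 (0.0834) no longer passed, which left 33 vessel genes lower. Of the ligands and partners 5 were higher and 4 lower with the block, with Figf (0.104), Nrp1 (0.0807) and Jag1 (0.0625) among those lost, and Ctla2a no longer passed (0.147). Same-numbered libraries did not deviate together (correlations -0.09, 0.08 and -0.01), and they share only a number in the labels.

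The 12 vessel genes with at most 3 pCAF counts are limited by depth: their folds are bounds or wide counting intervals.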
